A study of Mus musculus with 26 samples.

Results

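Csn3, Lilr4b, Crisp1, Slco4a1 and Slc14a1 are genes with some of the largest falls under alectinib in murine EML4-ALK lung cancer lines. They were found in the deposited counts table by symbol, ignoring case, and are 5 of its 55391 gene rows and 5 of the 14264 genes tested. They were chosen by their log2 ratio of alectinib to DMSO, as the largest falls among genes with an average log2 CPM of 3 or more. CPM is the share of a library's counts that fall on a gene, and the ratio itself is described here without a test. Each of the lines EA1, EA2 and EA3 was cultured with 100 nM alectinib, an inhibitor of the ALK kinase, or with 0.1% DMSO, its solvent. Days 1, 2, 3 and 5 were each sampled with a single library for a line and treatment, which gives 24 libraries, and a pair of libraries labelled EA3 day 7 brings the total to 26. All lines came from C57BL/6 mice and carry the EML4-ALK fusion. EA1 and EA3 were made by instilling an adenovirus with Cas9 and guides to Eml4 and Alk into the trachea, and EA2 was received from another laboratory. Each is a single cultured line, so that differences between lines cannot be assigned to how a line was made or to its genotype.

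ALK fusions signal through the MAPK pathway, and an ALK inhibitor shuts off that output within the tumor cell. Outside this setting, the 5 genes are known from specialised tissues. Csn3 encodes kappa-casein, the milk protein that coats casein micelles and keeps them in suspension. Crisp1 encodes a cysteine-rich secretory protein of the epididymis that coats sperm. Lilr4b encodes gp49A, a leukocyte immunoglobulin-like receptor of mast and myeloid cells that lacks the inhibitory tail motifs of its neighbor Lilrb4a. Slco4a1 encodes an organic anion transporter that carries thyroid hormones and prostaglandins, and Slc14a1 encodes a urea channel of red blood cells and kidney vessels. By these roles, 2 of the genes are secretory, 2 are transporters and Lilr4b is a cell surface receptor.

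Library totals ran from 5780062 to 11732401 counts (median 9252878), so that 3 counts, taken as the floor of detection for counting error only, correspond to 0.251 to 0.530 CPM in a library of days 1 to 5. Values given as CPM were scaled with edgeR's TMM factors. The libraries labelled EA3 day 7 went against their label. Across genes, the DMSO library of day 7 correlated at r = 0.967 with the EA2 DMSO libraries and at 0.887 with the EA3 DMSO libraries. The alectinib library of day 7 correlated at 0.986 with the EA2 alectinib libraries and at 0.876 with those of EA3. They entered no fit. Krt8, Krt18, Krt19 and Cdh1 were expressed in all lines. Cldn4, Cldn7 and Esrp1 were expressed in EA3 but stood at 0 to 9 counts in EA1 and 0 to 2 in EA2. Krt7 held 235 to 587 counts in EA1, Elf3 40 to 332 and Epcam 3 to 75. In EA2, Krt7 held 1 to 31 counts, Elf3 0 to 9 and Epcam 0 to 7. Of 10 alveolar type 2 markers, Abca3 and Lpcat1 were expressed in all lines, whereas Sftpa1 had 0 counts in all libraries and Sftpb, Sftpc, Lamp3 and Nkx2-1 at most 7 in any of days 1 to 5. Sftpd and Slc34a2 reached 80 and 325 counts in the EA3 alectinib library of day 5. In bulk RNA, fewer cells expressing a gene cannot be told apart from less RNA per cell.

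The upstream sequences are shown for Crisp1 and its closest relative Crisp3, because their counts differed widely within the same libraries. The 250 bases before the start of each gene (RefSeq, GRCm38.p6, minus strand) differ at 11 positions, which are in capitals, and are 95.6% alike. Both hold TATAAA at position -31 from the start.
Crisp1 (chr17:40319208-40319457): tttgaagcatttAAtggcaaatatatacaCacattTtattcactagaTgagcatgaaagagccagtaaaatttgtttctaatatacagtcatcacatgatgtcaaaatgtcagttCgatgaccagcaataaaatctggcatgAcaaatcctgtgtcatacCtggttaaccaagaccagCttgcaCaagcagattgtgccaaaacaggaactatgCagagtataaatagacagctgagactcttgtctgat
Crisp3 (chr17:40242289-40242538): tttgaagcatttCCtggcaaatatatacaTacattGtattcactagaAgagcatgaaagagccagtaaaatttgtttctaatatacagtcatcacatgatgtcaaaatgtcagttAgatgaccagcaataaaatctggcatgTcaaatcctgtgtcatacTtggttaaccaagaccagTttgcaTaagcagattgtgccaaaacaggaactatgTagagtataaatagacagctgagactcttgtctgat
The window of Lilr4b (plus strand) is shown because it holds a match to the STAT motif TTCNNNGAA, in capitals, at position -104. It also holds TATAAA at -151.
Lilr4b (chr10:51480362-51480611): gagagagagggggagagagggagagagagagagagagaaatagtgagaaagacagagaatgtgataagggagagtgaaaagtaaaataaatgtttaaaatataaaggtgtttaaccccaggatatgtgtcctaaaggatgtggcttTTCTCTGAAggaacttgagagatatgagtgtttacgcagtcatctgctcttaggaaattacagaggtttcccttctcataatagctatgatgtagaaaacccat
Motifs were searched on both strands of the windows, each running from 250 bases before to 50 after a start. Of 32817 such windows of mouse genes, 8.29% hold TTCNNNGAA and 13.6% hold TATAAA. Matches to TGANTCA (AP-1) and CCGGAAG (ETS), found in 7.81% and 8.86% of windows, were absent from the windows of Crisp1, Crisp3 and Lilr4b and from the 2 windows of Slco4a1. The windows of Slco4a1 held none of the 4 motifs. No overlap between different motifs was found in these windows, and a match in letters is a description, not a binding site. Csn3 and Slc14a1 are named without a sequence.

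Lilr4b and Lilrb4a lie side by side on chromosome 10, and their first 120 coding bases (GRCm38, plus strand, joined across exons) are shown because reads from near-identical stretches can be assigned to either. They differ at 2 positions, in capitals, and the coding sequences are 96.0% identical over 907 aligned bases.
Lilr4b: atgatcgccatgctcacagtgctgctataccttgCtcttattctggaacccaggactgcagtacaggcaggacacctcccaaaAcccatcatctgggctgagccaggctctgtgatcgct
Lilrb4a: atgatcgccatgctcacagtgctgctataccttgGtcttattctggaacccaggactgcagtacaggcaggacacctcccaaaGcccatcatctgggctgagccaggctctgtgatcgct
Of the 7764 possible stretches of read length in the Lilr4b transcripts, 3.13% also occur in another gene, namely Lilrb4a or Gm49339. None of the stretches of Csn3, Crisp1, Slco4a1 or Slc14a1 do. The 3.13% covers exact matches only. It does not measure how many Lilr4b counts belong to another gene, which was not tested.

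Csn3 (ENSMUSG00000001622, chromosome 5, 87925579 to 87932665, plus strand, 5 merged exons) was expressed in DMSO cultures of all 3 lines and was nearly absent with alectinib. In EA1 on days 1, 2, 3 and 5, its level in DMSO was 0.523, 1.45, 16.1 and 13.6 CPM. Alectinib libraries of EA1 held 0 counts on each day. The fall was at least 103-fold, with the floor of 3 counts taken over the 4 alectinib libraries. Most of the EA1 signal lay on days 3 and 5, and the DMSO library of day 1 held 5 counts. In EA2, DMSO levels were 3.67, 3.86, 11.9 and 4.98 CPM, against 0 counts on all days with alectinib. This was a fall of at least 69.1-fold, and the highest value stood on day 3. In EA3, DMSO levels were 5.56, 24.4, 43.8 and 62.6 CPM. The alectinib libraries of EA3 held 6, 3, 6 and 2 counts. The fitted log2 change in EA3 was -5.93 (SE 0.69), and the summed levels differed 69.1-fold (95% interval for counting error 42.9 to 119). The lowest DMSO library was above the highest alectinib library in every line.

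Lilr4b (ENSMUSG00000112023, chromosome 10, 51480632 to 51486703, plus strand, 3 merged exons) was present in EA1 and EA3 and close to absent in EA2. Not a single count was found in any of the 12 alectinib libraries. In EA1, its DMSO level was 1.15, 2.23, 11.1 and 10.2 CPM on days 1, 2, 3 and 5, at least 80.3-fold above alectinib. In EA3, it was 0.628, 14.8, 62.7 and 157 CPM, at least 622-fold above alectinib. Day 1 of EA3 rested on 7 counts and day 5 on 954. In EA2, DMSO libraries held 0, 0, 2 and 1 counts, which is at the floor, so that no fold is given. Lilr4b shares 122 exon bases (2.24%) with Gm49339 on the same strand.

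Lilrb4a, the inhibitory neighbor, followed at a far lower level. Its DMSO libraries held 0, 1, 6 and 9 counts in EA1 and 0, 2, 5 and 28 in EA3, and 1 count was found over all alectinib libraries of days 1 to 5. Lilr4b exceeded it in each DMSO library of EA1 and EA3. How many of these counts are reads of the other gene was not tested.

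Crisp1 (ENSMUSG00000025431, chromosome 17, 40293758 to 40319207, minus strand, 8 merged exons) was a gene of EA1. Its DMSO level there was 64.5, 92.9, 74.1 and 180 CPM, or 103 ± 52.6 CPM (SD, n = 4 days). Alectinib libraries held 4, 3, 4 and 2 counts, or 0.334 ± 0.112 CPM. The fitted log2 change was -8.16 (SE 0.49), and the summed levels differed 306-fold (counting interval 179 to 575). The alectinib libraries stayed under the DMSO libraries by a wide margin on every day. In EA2, all 8 libraries held 0 counts. In EA3, 3 counts were found over the DMSO libraries and 1 over the alectinib libraries, and no fold is given for either line.

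Crisp3, whose upstream bases are printed above beside those of Crisp1, held 2, 2, 2 and 3 counts in the EA1 DMSO libraries in which Crisp1 held 617, 834, 693 and 1390. It held 3 counts over the EA1 alectinib libraries and 0 in EA2 and EA3. Crisp2 reached at most 9 counts in a library and Crisp4 had 0 counts in all 26. The coding sequences of Crisp1 and Crisp3 are 89.2% identical, and no stretch of read length is shared.

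**Figure D1:**
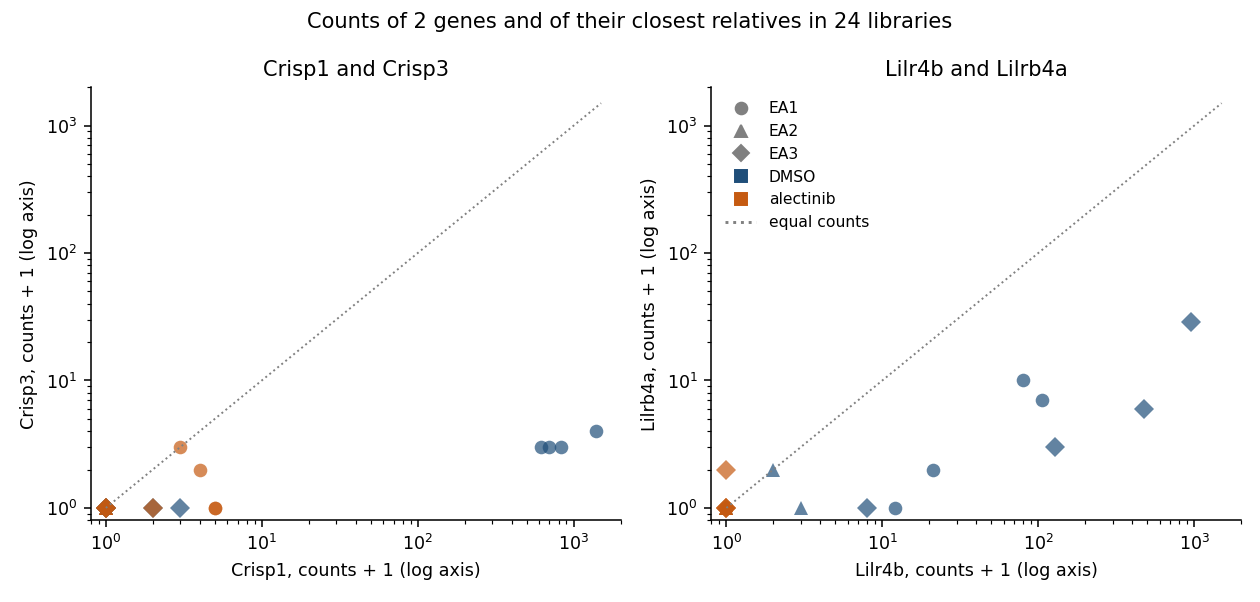
Counts plus 1 of Crisp1 against Crisp3 (left) and of Lilr4b against Lilrb4a (right) in the 24 libraries of days 1 to 5, on log axes. Blue points are DMSO and orange points alectinib libraries, shapes mark the lines, and the dotted line marks equal counts. The 4 EA1 DMSO libraries hold 617 to 1390 counts of Crisp1 and 2 to 3 of Crisp3, and the DMSO libraries of EA1 and EA3 lie under the line for Lilrb4a.

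Slco4a1 (ENSMUSG00000038963, chromosome 2, 180456245 to 180474867, plus strand, 12 merged exons) was expressed in DMSO cultures of all lines, and it was the gene with the most counts left under alectinib. In EA1, its DMSO level was 74.5, 57.3, 14.7 and 17.6 CPM on days 1, 2, 3 and 5. The alectinib libraries of EA1 stood at 2.32, 0.367, 0.311 and 0.0838 CPM, which rest on 24, 3, 3 and 1 counts. Both treatments were highest on day 1, and the fitted log2 change was -5.97 (SE 0.72). In EA2, the DMSO level varied little, at 4.12, 4.31, 3.31 and 3.09 CPM. All EA2 alectinib libraries held 0 counts, a fall of at least 40.8-fold. In EA3, DMSO libraries stood at 3.77, 7.46, 31.9 and 13.5 CPM and alectinib libraries at 2.40, 1.31, 2.45 and 0.216 CPM. The log2 ratio of alectinib to DMSO in EA3 was -0.61 on day 1, -2.33 on day 2, -3.59 on day 3 and -4.99 on day 5. The groups did not overlap, but the DMSO library of day 1 lay only slightly above the highest alectinib library. The fitted log2 change in EA3 was -2.92 (SE 0.65), and the summed levels differed 7.78-fold (counting interval 5.995 to 10.2). The fitted change was -3.75 without day 1 and -2.33 without day 5.

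Slc14a1 (ENSMUSG00000059336, chromosome 18, 78100091 to 78142119, minus strand, 11 merged exons) was expressed in EA2 and EA3. In EA3, the DMSO level was 31.0, 33.5, 140 and 62.8 CPM on days 1, 2, 3 and 5, and 66.9 ± 51.1 CPM on average (SD, n = 4 days). The alectinib level in EA3 was 1.02, 0.872, 2.45 and 0.433 CPM, which rests on 11, 8, 26 and 4 counts. Both treatments peaked on day 3. The fitted log2 change was -5.72 (SE 0.43), and the summed levels differed 50.6-fold (counting interval 38.2 to 68.7). In EA2, the DMSO level was 9.76, 9.51, 19.7 and 14.1 CPM. The alectinib libraries of EA2 held 2 counts on day 1 and 0 afterwards, a ratio of 227 with a counting interval of 62.5 to 1877. In EA1, DMSO libraries held 4, 2, 2 and 0 counts and alectinib libraries 0, 1, 0 and 0. That ratio was 9.01 with an interval of 1.21 to 400, and the EA1 groups overlapped.

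**Figure D2:**
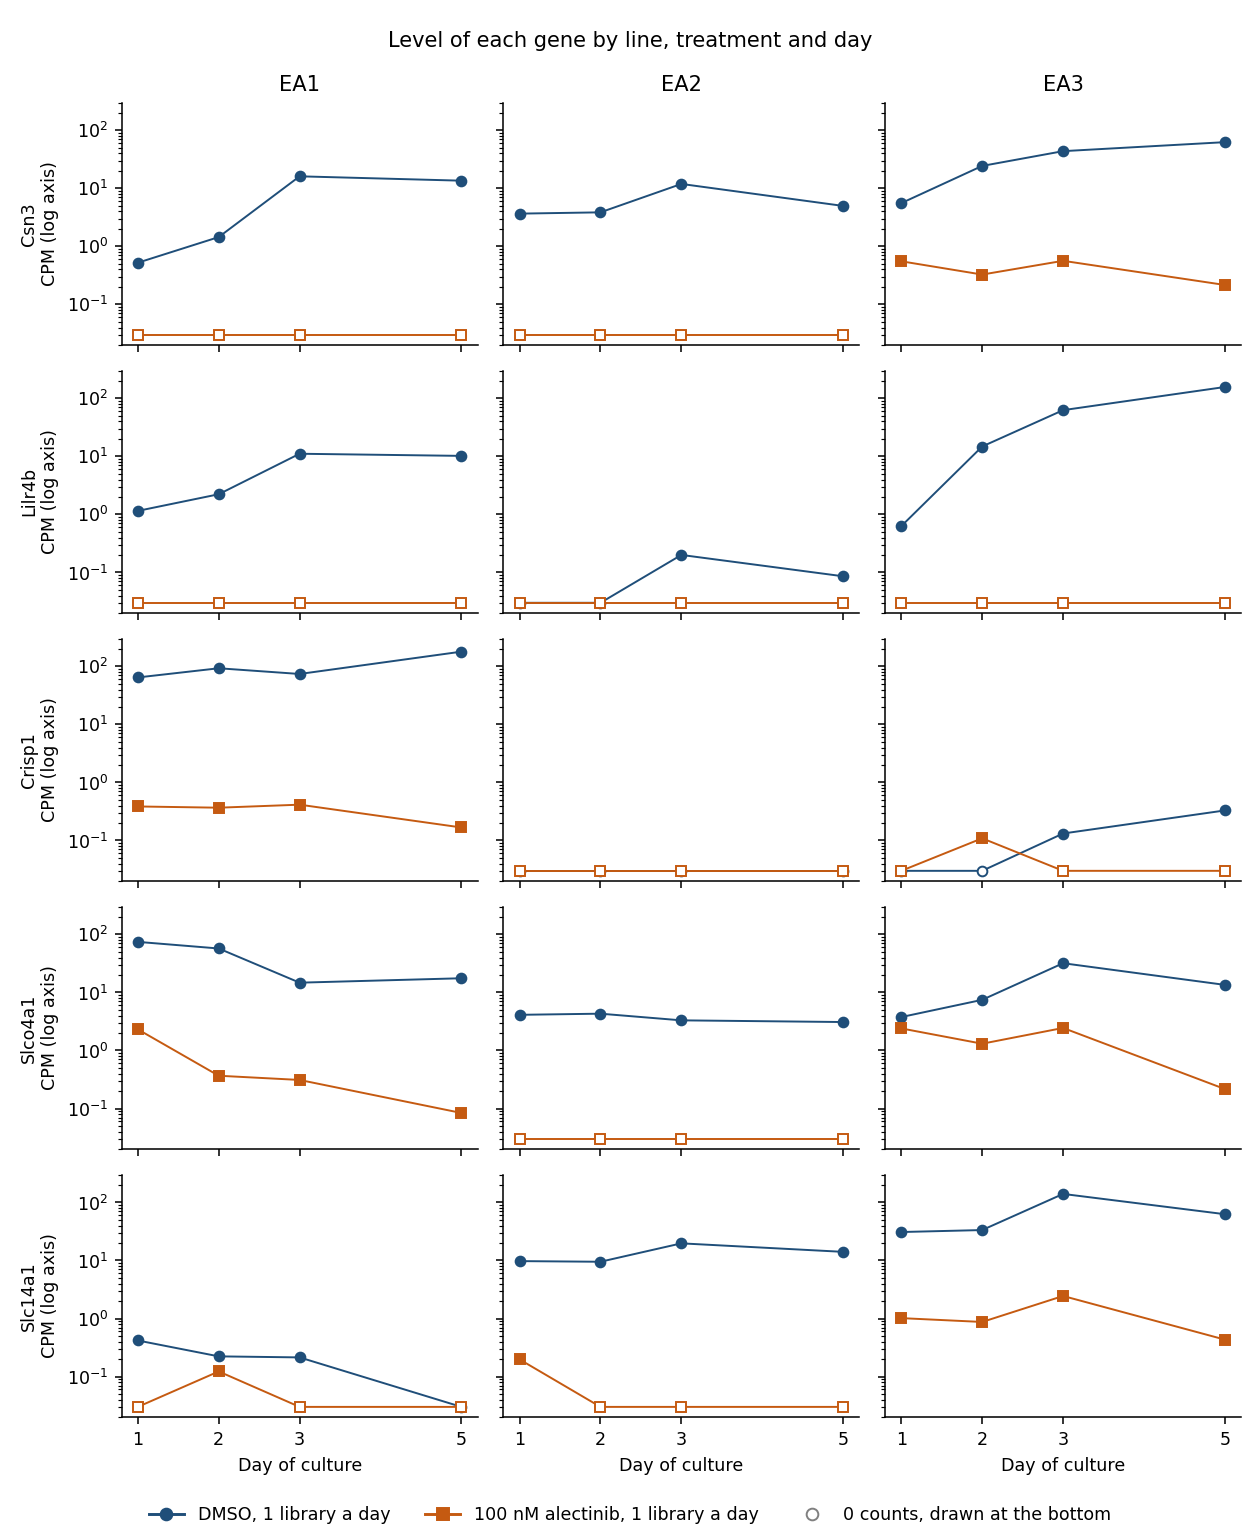
CPM (log axis) of the 5 genes in EA1, EA2 and EA3 by day of culture, with 1 library per point, DMSO as blue circles and 100 nM alectinib as orange squares. Open symbols are libraries with 0 counts, drawn at the bottom of the axis, where points of both treatments can cover each other. Lilr4b stands at 0 in all alectinib libraries, and Slco4a1 in EA3 has 3.77 CPM with DMSO against 2.40 CPM with alectinib on day 1.

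No alectinib library reached the level of any DMSO library of the same line for 4 of the 5 genes in EA1, 3 in EA2 and 4 in EA3. Of all tested genes, 13.0% in EA1, 12.5% in EA2 and 10.7% in EA3 were separated in that direction. Since this difference chose the genes, nothing is read from the counts. The genes stood near the limit of the choice as follows. The average log2 CPM was 3.37 for Slco4a1, 3.39 for Lilr4b, 3.76 for Slc14a1 and 4.12 for Crisp1. Csn3, at 2.998, fell just short of 3 in the fit used here. Ranks of genes with 0 alectinib counts depend on the prior count of the fit. Ranked by fitted fall in EA1, Csn3, Lilr4b and Crisp1 came 1st to 3rd of 1766 genes and Slco4a1 6th, with Prss22, a secreted serine protease, 4th (log2 change -6.23). In EA2, Csn3, Slco4a1 and Slc14a1 came 1st to 3rd of 1253, followed by Spry4 (-7.06). In EA3, Lilr4b came 1st of 1730, followed by the water channel Aqp8 (-8.11), while Csn3 came 7th, Slc14a1 9th and Slco4a1 77th. Just under the level limit stood Csf2, which encodes the cytokine GM-CSF, in EA1 (log2 change -8.56 at an average of 2.90), Rgs2 in EA2 (-5.70 at 2.80) and Usp17la in EA3 (-3.14 at 2.78).

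Levels of different genes were compared per kb of merged exons in DMSO cultures. Crisp1 in EA1 was highest at 72.6 ± 37.1 CPM per kb (SD, n = 4 days). Slc14a1 in EA3 followed at 16.7 ± 12.8 CPM per kb, Lilr4b in EA3 at 10.8 ± 13.0, Slco4a1 in EA1 at 8.55 ± 6.16 and Csn3 in EA3 at 8.21 ± 5.93. From Slc14a1 down to Csn3, neighbors in this order differed by less than their SDs. Within genes, Csn3, Lilr4b and Slc14a1 had their highest DMSO mean in EA3, whereas Crisp1 and Slco4a1 had it in EA1. None of the 5 was highest in EA2. The mean DMSO level of Csn3 was 7.92 ± 8.08 CPM in EA1, 6.11 ± 3.92 in EA2 and 34.1 ± 24.6 in EA3, so that EA1 and EA2 did not differ beyond their spread. For Slco4a1, EA1 stood at 41.0 ± 29.6 CPM, EA2 at 3.71 ± 0.597 and EA3 at 14.2 ± 12.5, and the ranges of EA1 and EA3 overlapped.

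The level over days within DMSO cultures was fitted as a slope on log2 of the day over the 12 DMSO libraries. The choice of the genes used the levels of these same libraries, through the ratio and through the limit on the average level, so that the slopes are not independent of it and are read as a description. Lilr4b in EA3 rose by 3.29 log2 units per doubling of days (SE 0.41, 4 libraries, adjusted p = 0.00408 by the quasi-likelihood test of edgeR). This was the only 1 of 12 measured slopes past the threshold of 0.05. Of all tested genes, 2.71% rose and 2.47% fell over days in EA3 DMSO cultures, 0.757% rose and 0.877% fell in EA1, and 0.0% did either in EA2. Of the 1563 Lilr4b counts in EA3 DMSO libraries, 954 came from day 5. The call depended on the ends of the series. Without day 1 the adjusted p was 0.904, and without day 5 it was 0.0511. Csn3 slopes were 2.27 in EA1 (SE 0.55, adjusted p = 0.0665), 0.44 in EA2 (SE 0.46, adjusted p = 1.0) and 1.52 in EA3 (SE 0.45, adjusted p = 0.0740), from edgeR. Lilr4b in EA1 had a slope of 1.53 (SE 0.39, adjusted p = 0.0809, edgeR). With DESeq2's Wald test, the slopes of Csn3 in EA1 and EA3, of Lilr4b in EA1 and of Slco4a1 in EA3 passed as well.

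The slopes of Slco4a1 differed in sign between lines, at -1.03 in EA1 (SE 0.35), -0.20 in EA2 (SE 0.38) and 1.14 in EA3 (SE 0.43). None passed the threshold (adjusted p = 0.164, 1.0 and 0.144, edgeR). The difference between the lines had an unadjusted p of 0.00712 for Slco4a1 and an adjusted p of 0.946 over all genes by edgeR's quasi-likelihood test. For the other 4 genes it gave adjusted p = 1.0 by edgeR. That test called 0 of all tested genes, and 555 had an unadjusted p under 0.05. The slopes of Slc14a1 were -1.07 in EA1 (SE 0.86), 0.34 in EA2 (SE 0.33) and 0.75 in EA3 (SE 0.35), and that of Crisp1 in EA1 was 0.57 (SE 0.18). These did not pass either, with adjusted p = 0.592, 1.0, 0.237 and 0.166 in that order by edgeR.

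**Figure D3:**
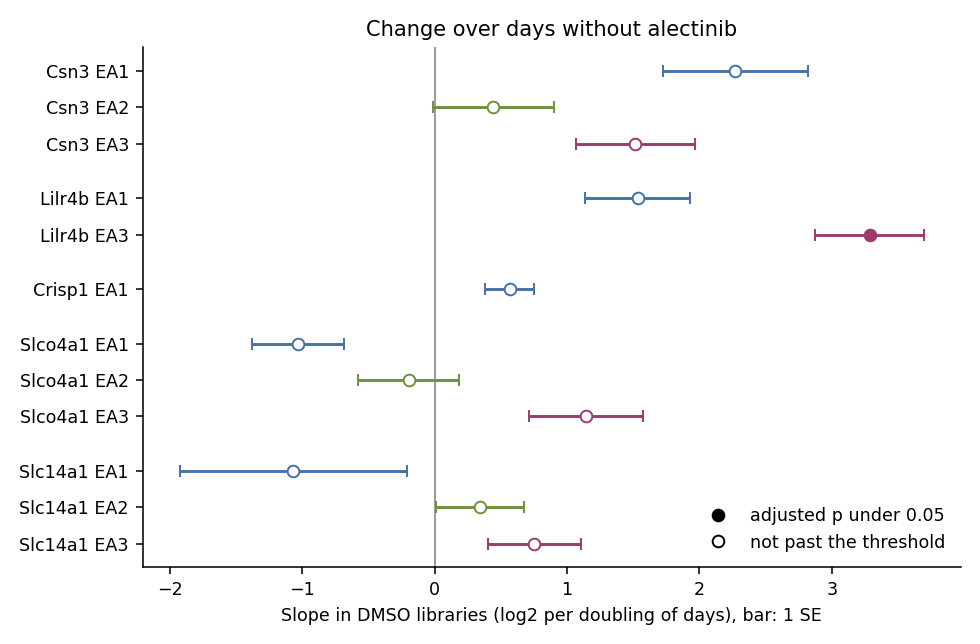
Slope of the level over days in DMSO libraries (log2 per doubling of days, bars 1 SE, 4 libraries each) for the 12 combinations of gene and line above the floor of 3 counts. Filled points passed an adjusted p of 0.05. Lilr4b in EA3 is the single filled point, at 3.29, and Slco4a1 has a negative slope in EA1 and a positive slope in EA3.

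In alectinib cultures, 5 slopes could be measured, also on libraries that the choice of the genes used and at few counts, so that they are a description too, and none of them passed the threshold by edgeR. DESeq2's Wald test gave none of them an adjusted p. The lowest was that of Slco4a1 in EA1 at -1.94 (SE 0.57, unadjusted p = 0.00957, adjusted p = 0.488), the only 1 with an unadjusted p under 0.05. No gene of the whole table passed in EA1 alectinib cultures, so that the background was 0.0% there, in EA2 it was 0.014% rising and 0.0491% falling, and in EA3 0.659% rising and 0.0771% falling. Slco4a1 in EA3 had a slope of -0.81 (SE 0.56), Csn3 in EA3 -0.37 (SE 0.56), Crisp1 in EA1 -0.36 (SE 0.62) and Slc14a1 in EA3 -0.04 (SE 0.67). The remaining 10 combinations stood at or under the floor.

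The day 7 libraries, given apart because of their label, held 160 counts of Csn3 with DMSO and 0 with alectinib. Slc14a1 had 232 and 0 counts and Slco4a1 23 and 1. Lilr4b had 2 and 0 counts, whereas the EA3 DMSO library of day 5 held 954. Crisp1 had 0 in both. With a single library per treatment, these differences have no replicate check.

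Of 20 milk and lactation genes listed with Csn3, 8 were expressed enough to be tested, and in EA1 1 was lower and 5 were higher with alectinib, where 14.6% of all genes were lower and 19.0% higher. In EA2, 0 were lower and 2 higher, beside 11.3% and 13.0% of all genes. In EA3, 0 were lower and 3 higher, beside 15.1% and 17.5%. At these shares, about 1 lower gene in a list of this size is the background in each line, so that nothing is read from the lower counts. Without day 1, 2 were lower in EA2 and 1 in EA3, as with DESeq2, and without day 1, 2 or 3 only 3 were higher in EA1. With no filter on low counts, 1 was lower in EA2 and 2 in EA3. The median log2 change of the list was 0.72, -0.27 and 0.64, against 0.06, 0.00 and 0.07 for all genes. The major caseins were missing: Csn2 and the whey gene Lalba had 0 counts in all libraries, and Csn1s1, Csn1s2a and Csn1s2b did not exceed 2 counts in any. Ltf, a gene of this list that was not tested, held 0, 11, 3 and 79 counts in EA3 DMSO libraries of days 1, 2, 3 and 5. It held 0, 1, 0 and 8 in the EA3 alectinib libraries and at most 1 count in any other library. Xdh, whose product sits on milk fat droplets, rose in EA1 from 23.9 ± 9.77 to 98.4 ± 21.5 CPM (log2 change 2.11, SE 0.34, adjusted p = 0.000551 by edgeR). Stat5a, the transcription factor of lactation, rose by 1.58 (SE 0.28) in EA1 and 1.502 (SE 0.28) in EA2 on the log2 scale. Among the feedback inhibitors that STAT5 induces, Socs2 fell by 1.91 on the log2 scale in EA1, and Cish rose by 0.92 in EA1 and 1.67 in EA3. Elf5 and Prlr, markers of milk-secreting luminal cells, had 0 counts in EA1. Of the mammary luminal markers, Areg, an EGFR ligand that many epithelia make, was lower in every line (log2 changes -2.47, -4.14 and -4.56). The summed level of the mammary marker list ran from 232 to 2259 CPM in EA1 DMSO libraries and from 65.5 to 214 with alectinib. It ran from 78.9 to 217 and from 11.3 to 38.1 in EA2, and from 86.6 to 323 and from 15.7 to 25.5 in EA3. Areg made up 87.1% to 99.7% of this sum in the DMSO libraries. Without Areg, the sum ran from 7.48 to 10.25 CPM with DMSO and from 7.53 to 18.9 with alectinib in EA1, from 8.22 to 12.2 and from 7.60 to 24.8 in EA2, and from 5.11 to 28.2 and from 8.62 to 18.7 in EA3, so that the groups overlapped. Gata3 was higher in EA1 (log2 change 1.43, SE 0.41) and Esr1 lower in EA3 (-1.66, SE 0.46), and neither passed in the other lines.

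Genes of myeloid and mast cells, the usual source of Lilr4b, were checked in the same libraries. Tyrobp, the signaling adapter of myeloid receptors, had 0 counts in all 26 libraries. Ptprc, which marks all leukocytes, had 0 to 2 counts in the EA3 DMSO libraries, in which Lilr4b reached 954. Itgam reached at most 3 counts there and Spi1 at most 1. Csf1r held 8, 3, 20 and 9 counts there and 27, 23, 73 and 17 with alectinib. Cd53, a leukocyte gene outside these lists, was expressed in DMSO cultures of all lines. It stood at 34.7, 35.3 and 28.0 CPM in EA1, EA2 and EA3, against 0.803, 0.598 and 0.124 with alectinib. The mast cell genes Cpa3, Tpsb2 and Tpsab1 had 0 counts throughout. Mcpt4, a mast cell protease gene that was not tested, held 4, 5, 2 and 6 counts with DMSO and 9, 17, 32 and 156 with alectinib in EA1 on days 1, 2, 3 and 5. The summed level of the 10 myeloid markers lay between 73.5 and 188 CPM in EA3 DMSO libraries and between 82.6 and 234 with alectinib. In EA1 it lay between 46.1 and 105 CPM and between 49.8 and 70.5, and in EA2 between 34.6 and 108 and between 24.9 and 59.3. Most of this came from Cd14 and Cd68. Cd14 stood at 94.6 ± 50.8 CPM in EA3 DMSO cultures and 113 ± 74.1 with alectinib. Cd68 held 57, 152, 283 and 556 counts in EA3 DMSO libraries on days 1, 2, 3 and 5. With alectinib it held 85, 104, 224 and 62. Its log2 change in EA3 was -1.10 (SE 0.57) and did not pass (adjusted p = 0.159 by edgeR). Of the 4 tested myeloid markers, 0, 1 and 0 were lower and 1, 0 and 1 higher in EA1, EA2 and EA3, near the background of 14.6%, 11.3% and 15.1% of all genes lower and 19.0%, 13.0% and 17.5% higher. The mast cell list ran from 0.528 to 1.81 CPM in EA3 DMSO libraries and from 0.739 to 3.57 with alectinib. In EA1 it ran from 12.7 to 29.5 and from 45.2 to 149, and in EA2 from 3.27 to 5.91 and from 1.24 to 2.58. Only Gata2 of that list was tested, and it was higher in EA1 (log2 change 1.94) and lower in EA2 (-1.17).

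Of 24 leukocyte receptors and partners listed with Lilr4b, 19 were in the table and 3 were tested. The receptor Pirb did not exceed 4 counts in a library and Lilra5 had 0. Ptpn6, the phosphatase SHP-1 that inhibitory receptors recruit, was lower in EA2 (4.37 ± 0.504 to 0.623 ± 0.630 CPM, log2 change -2.97, SE 0.54, adjusted p = 0.00142 by edgeR). Fcgr3, an activating Fc receptor, was higher in EA1 (2.39, SE 0.37) and EA3 (1.19, SE 0.38). Ptpn11, the phosphatase SHP-2, was higher in EA3 (0.78, SE 0.18). In all, 0, 1 and 0 of the 3 were lower and 1, 0 and 2 higher, beside 14.6%, 11.3% and 15.1% of all genes lower and 19.0%, 13.0% and 17.5% higher. With no filter, which tests more of the list, 2 were lower in EA1 and 2 in EA3, and 2 and 1 were higher there. Without day 1, 1 was higher in EA2. In EA3, 1 was higher without day 1, 3 or 5 and 0 without day 2.

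Of 14 genes of the wider family of Crisp1, secreted proteins with a CAP domain, 4 were tested. In EA1, 0 were lower and 3 higher, where 14.6% of all genes were lower and 19.0% higher. EA2 had 1 lower and 1 higher (all genes 11.3% and 13.0%) and EA3 had 0 lower and 2 higher (15.1% and 17.5%). Without day 1, 3 or 5, 2 were higher in EA1, and without day 5, 0 were lower in EA2. The median log2 change was 1.92, -0.28 and 2.13. Glipr1 rose in every line, from 56.6 ± 10.1 to 113 ± 21.9 CPM in EA1, from 24.05 ± 0.880 to 54.0 ± 14.6 in EA2 and from 14.4 ± 4.94 to 87.3 ± 24.9 in EA3. Glipr2 rose in EA1 (2.90, SE 0.36) and EA3 (2.70, SE 0.39) on the log2 scale. Pi15 passed as higher in EA1 on 2 counts with DMSO and 23 with alectinib, 19 of them on day 5, and R3hdml was lower in EA2 (-2.07, SE 0.51).

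Among 14 other organic anion transporters of the SLCO family, 4 were tested besides Slco4a1, of which 0 were lower and 1 higher in EA1. EA2 had 2 lower and 1 higher, and EA3 had 1 lower and 2 higher. Without day 5, 2 were higher in EA1, and without day 2 or day 3, 1 was lower in EA2. In EA3, 0 were lower without day 1, 2 or 3, without the block and with library size alone. Of all genes, 14.6%, 11.3% and 15.1% were lower and 19.0%, 13.0% and 17.5% higher in EA1, EA2 and EA3. The list's median log2 change was 0.59, -1.18 and 1.46. Slco4c1, the other member of the SLCO4 family, had at most 2 counts in a library. Slco1a5, a transporter with bile acids and thyroid hormones among its substrates, rose in all lines, with log2 changes of 4.48 (SE 0.51), 3.18 (SE 0.44) and 2.99 (SE 0.59) and adjusted p of 4.13e-05, 0.000181 and 0.00215 by edgeR. Its level remained low, at 5.64 ± 2.83 CPM with alectinib in EA1. Slco3a1 was higher in EA3 (2.43, SE 0.26) and lower in EA2 (-0.90, SE 0.24). Slco2a1, the prostaglandin transporter, was lower in EA2 (-1.46, SE 0.22) and EA3 (-0.60, SE 0.22), where the adjusted p was 0.0483 by edgeR.

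Of 12 genes of thyroid hormone transport and action, 7 were tested, with 2 lower and 3 higher in EA1. EA2 had 1 lower and 1 higher, and EA3 again 2 and 3. The shares over all genes were 14.6%, 11.3% and 15.1% lower and 19.0%, 13.0% and 17.5% higher. Without day 2 or day 5, 0 were lower in EA2 and 1 was higher in EA3, and without day 1, 3 were higher in EA2. The median log2 change was 0.92, 0.47 and 0.32. Dio3, the deiodinase that inactivates thyroid hormone, rose in every line, by log2 changes of 5.13 (SE 0.68), 2.90 (SE 0.65) and 4.82 (SE 0.87) with adjusted p of 0.000131, 0.00525 and 0.00108 by edgeR. In EA3, the change of Dio3 rests on 3 counts with DMSO and 164 with alectinib, 127 of them on day 5. The mean level of Dio3 in EA1 was 0.310 ± 0.275 CPM with DMSO and 12.3 ± 7.67 with alectinib. Slc7a5 and Slc3a2, the chains of an amino acid carrier that also takes up thyroid hormone, were lower in EA1 (-1.99 and -1.18) and EA3 (-1.77 and -1.13). In EA2 their log2 changes of 0.61 and 0.47 did not pass.

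Slc14a2, the kidney urea transporter and the close relative of Slc14a1, did not exceed 4 counts in a library. The other genes of this list of 12 are aquaporins, a separate family of water channels, of which 5 were tested, with 0 higher in any line, where 19.0%, 13.0% and 17.5% of all genes in EA1, EA2 and EA3 were. Lower was 1 in EA1, where 14.6% of all genes were lower. In EA2, 4 were lower (2 without day 2), beside 11.3%, and in EA3 4, beside 15.1%. The median log2 change was -0.23, -1.94 and -1.87. Aqp8 was lower in every line, with log2 changes of -3.36 (SE 0.42), -4.69 (SE 0.97) and -8.11 (SE 0.54) and adjusted p of 7.99e-05, 0.00338 and 1.57e-06 by edgeR. In EA3, it went from 61.0 ± 20.5 CPM with DMSO to 0.193 ± 0.179 CPM with alectinib. Aqp3, which also passes glycerol, was lower in EA3 (12.9 ± 7.50 to 2.16 ± 0.176 CPM). Aqp1 was lower in EA2 (-2.98, SE 0.80), and Aqp11 in EA2 (-1.94, SE 0.50) and EA3 (-1.29, SE 0.45). As a check of ALK inhibition, 8 of 10 MAPK output genes were lower in each line, beside 14.6%, 11.3% and 15.1% of all genes. With a day left out, 7 to 8 were lower in EA1, 8 to 9 in EA2 and 6 to 7 in EA3. With at least 10 counts in every library, which leaves fewer of the list, 5 were lower in EA1 and in EA2. In addition, 1 of the 10 was higher in each line, though not in EA2 without day 3 or day 5 or without the block. Spry4, an inhibitor of receptor tyrosine kinase signaling, had log2 changes of -4.27 (SE 0.38), -7.06 (SE 0.52) and -5.74 (SE 0.45). Etv5 stood at -3.66, -6.66 and -4.49, Etv4 at -4.08, -6.59 and -4.03, and Dusp6 at -2.34, -5.03 and -3.28.

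**Figure D4:**
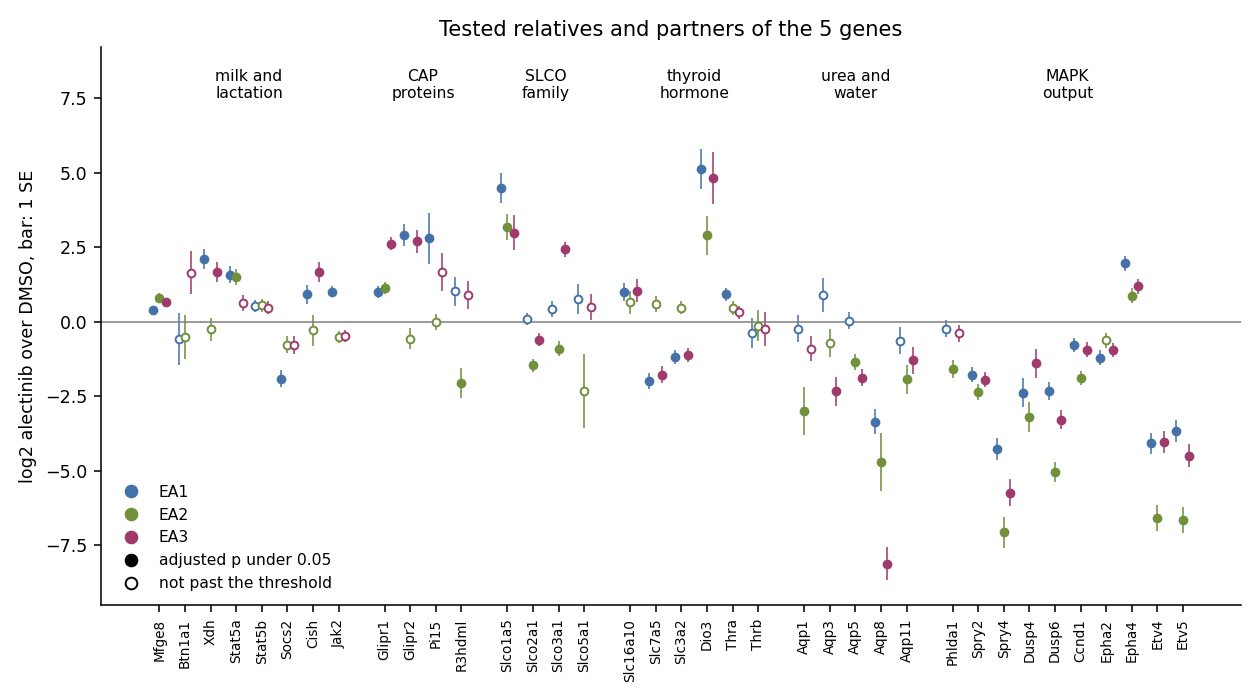
Log2 change with alectinib (bars 1 SE, edgeR) of the tested genes of 6 lists in EA1, EA2 and EA3, with filled points where the adjusted p was under 0.05. Slco1a5 and Dio3 stand above 0 in all lines at 2.90 to 5.13, and Aqp8 falls to -8.11 in EA3. The axis is a log2 scale and the 5 chosen genes and a gene of the thyroid hormone list are not drawn.

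Several fibroblast markers rose in the alectinib libraries, with 5, 3 and 5 of 7 tested genes higher and 0 lower in EA1, EA2 and EA3, where 19.0%, 13.0% and 17.5% of all genes were higher. The summed level of the list ran from 4409 to 22334 CPM in EA1 DMSO libraries and from 6795 to 10639 with alectinib. In EA2 it ran from 3126 to 6690 and from 3416 to 8325, and in EA3 from 1894 to 7643 and from 5399 to 7828. Fn1, which many cell types express, made up 93.3% to 99.96% of this sum and passed in no line. Without Fn1, the sum ran from 9.08 to 44.1 CPM with DMSO and from 126 to 479 with alectinib in EA1, from 58.5 to 71.5 and from 122 to 239.8 in EA2, and from 10.2 to 20.2 and from 84.9 to 286 in EA3, so that every alectinib library was above the DMSO libraries of its line. The part of this shift in the values above was not tested. In EA1, the matrix proteoglycan gene Dcn had 0.0602 ± 0.0699 CPM with DMSO and 4.70 ± 4.07 CPM with alectinib. In EA3, it had 0.0703 ± 0.0836 and 14.0 ± 23.0 CPM. Of the 521 Dcn counts in EA3 alectinib libraries, 447 came from day 5. Day 5 also gave 223 of the 238 Col3a1 counts and 62 of the 70 Pdgfrb counts there. In EA2, Dcn stood at 45.4 ± 7.74 CPM with DMSO and 91.8 ± 54.2 with alectinib and did not pass. Of the 10 epithelial markers, 1, 2 and 1 were lower, beside 14.6%, 11.3% and 15.1% of all genes, and 2, 2 and 1 higher, with Krt18 lower in each line (log2 changes -1.51, -1.79 and -1.13).

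Genes with the most similar profile were sought by Pearson's correlation of log2 CPM over the 24 libraries, which share lines, treatments and depth, so that r is a description. Csn3 was followed most closely by Dusp5, a phosphatase of ERK (r = 0.972), then Rai14 (0.938) and Gm11714 (0.934). The mean of Dusp5 was 47.2, 66.4 and 106 CPM in DMSO and 5.47, 6.44 and 11.8 CPM with alectinib in EA1, EA2 and EA3. For Lilr4b these were Tmem132c (0.909), Ehbp1l1 (0.907) and Ero1l (0.900), an oxidoreductase of the endoplasmic reticulum. Tmem132c shared the absence from EA2, at 8.48, 0.0251 and 17.7 CPM in DMSO. For Crisp1 they were Ube2ql1 (0.907), the sialyltransferase gene St8sia6 (0.886) and Zfp777 (0.876), and the mean of Ube2ql1 was 119 CPM in EA1 DMSO cultures, 1.27 in EA2 and 4.19 in EA3. For Slco4a1 they were the protease genes Prss16 (0.908) and Gzme (0.906) and the phosphate transporter gene Slc20a2 (0.902). For Slc14a1 they were Sh2d5 (0.958), Gm4813 (0.931) and Sh2d1b1 (0.923). Sh2d5 stood at 2.08 CPM in EA1 DMSO cultures and at 27.6 and 34.7 in EA2 and EA3. Among the 5 genes, r ranged from 0.81 between Csn3 and Lilr4b to -0.33 between Crisp1 and Slc14a1, which are expressed in different lines.

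Tested genes on either side of the 5 were compared by the fit over all genes. Siglec15, a sialic acid receptor whose start lies 56.5 kb from that of Slc14a1, was lower in all 3 lines, with log2 changes of -1.91 (SE 0.60), -5.27 (SE 0.73) and -3.87 (SE 0.65) and adjusted p of 0.0262, 0.000193 and 0.000683 by edgeR. Its level went from 12.6 ± 6.14 to 0.310 ± 0.384 CPM in EA2. In EA1, where Slc14a1 was near the floor, Siglec15 went from 6.33 ± 3.81 to 1.52 ± 0.638 CPM. On the other side of Slc14a1, Gm6133 passed in none of the lines. Ugt2b36, a glucuronosyltransferase gene 860 kb from Csn3, was higher in EA1 (0.0279 ± 0.0557 to 4.42 ± 2.60 CPM) and EA3 (0.0703 ± 0.0836 to 7.64 ± 5.58 CPM), and in EA2 it had 0 counts. Utp3 on the other side of Csn3 was lower in EA1 (-0.49, SE 0.15). Near Slco4a1, Mrgbp was lower in EA1 (-0.51) and EA3 (-0.60) and Rbbp8nl in EA2 (0.281 ± 0.0212 to 0.0 CPM). That DMSO level of Rbbp8nl lies near the floor of 3 counts in a library. Next to Lilr4b, Ascc3 was lower in EA1 (-1.02), and Dcbld1 passed in no line, as did CT010467.1 and 9130008F23Rik, the tested genes closest to Crisp1. Csn3 overlaps the antisense gene 1700066N21Rik without sharing exon bases.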

How the data were processed

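The authors checked reads from stranded mRNA libraries with FastQC, and trimmed adapters with bbduk and aligned them to mm10 with STAR. Its internal counter gave the count per gene, which the authors deposited without normalization. The annotation release and the strand column are not given in the sources used here. The table holds 55415 rows. Of these, 24 are date numbers that name no gene with 0.129% to 0.201% of the counts per library, and these rows were not used.

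The analysis used edgeR 4.0.16 in R 4.3.3 (TMM, filterByExpr, robust quasi-likelihood test), with DESeq2 1.42.0 as an alternative. The alectinib effect of each line was fitted over 24 libraries with 12 blocks of line and day. Libraries of a day share a culture day; their deviations from group means correlated between -0.300 and 0.549. Slopes on log2 of the day were fitted within each treatment, and their difference between lines was added later. In the alectinib fit, the 4 days served as replicates, so that its p-values measure the spread between days. In the slope fits, the day is the predictor, so that p-values measure the scatter around the slope. The spread of a gene was estimated over all lines together in each fit. P-values were adjusted by Benjamini and Hochberg over all genes, with a threshold of 0.05. Log2 CPM used a prior count of 2. SEs of fitted changes and slopes were derived from the estimate and the F statistic of the quasi-likelihood test. Ratios of summed counts carry exact 95% intervals for counting error only. Coordinates are from GENCODE M21 (GRCm38, the assembly of mm10). Calculations were tested on simulated data.

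The genes and lists were chosen with earlier results of these data known. Named genes are the 5, the 3 most correlated with each, up to 4 of each list with the largest called change and relatives of the 5, tested neighbors, and genes at the edge of the choice. A part of the lines' genotype and a gene of the thyroid hormone list are not reported here. Leukocyte receptors listed but not in the table, and other data of the study, were not analysed here.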

Additional observations from a re-analysis of the deposited data

Results flagged for a closer look

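Among 17 groups of 4 days checked for a day that stood apart, 2 held one. Csn3 in EA2 DMSO cultures was high on day 3, at 11.9 CPM against 3.67 to 4.98 CPM on the other days, and the gap to the nearest value was 0.841 of the whole range. Slco4a1 in EA1 alectinib cultures was high on day 1, at 2.32 CPM against 0.0838 to 0.367 CPM, with a gap of 0.873 of the range. Chance alone flags about 1 group in 20.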

How the results depend on the processing

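At 1 library per line, treatment and day, no difference within a day has an error, a fold against 0 counts is only a lower bound, and one against 1 to 3 counts has a wide interval. The fitted log2 ratio of each gene counted in both treatments kept its sign under all alternatives. With a day left out it ran from -8.45 to -7.60 for Crisp1 in EA1, from -6.76 to -5.29 for Csn3 in EA3, from -6.71 to -5.68 for Slco4a1 in EA1 and from -5.98 to -5.38 for Slc14a1 in EA3. For Slc14a1, no alectinib count is left in EA2 without day 1 or in EA1 without day 2, so that no ratio is given there, and the ratio nearest to 0 with another day left out was -6.92 in EA2 and -1.60 in EA1. Leaving out a day lowered the bound for Csn3 in EA1 to at least 49.0-fold (without day 3), for Csn3 in EA2 to at least 34.8-fold (without day 3), for Lilr4b in EA1 to 43.8-fold (without day 3) and in EA3 to 227-fold (without day 5). For Slco4a1 in EA2 it lowered it to 27.0-fold (without day 1). The block of line and day changed no direction. Without the replicate block, 1971 genes were lower and 2455 higher in EA1, and the log2 change of Crisp1 there was -8.24. With library size alone, 64.7% of calls in EA3 were higher, against 53.6%, and the scaling moved log2 ratios in EA3 by 0.12 on average over days.

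Leaving out a day left 1360 to 1907 lower and 1436 to 2181 higher genes in EA1, 985 to 1306 and 1157 to 1349 in EA2, and 1389 to 1836 and 1447 to 2053 in EA3. The lowest counts came without day 3 in EA1 and EA2 and without day 2 in EA3. With at least 10 counts in every library, 1745 genes were higher in EA1, and none of the 5 genes remained.

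Of the counts over the 7 gene lists, 31 moved by more than 1.5 times under other settings and 221 did not, and with a day left out 25 moved and 143 did not.

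Calls of slopes in DMSO cultures depended on the tool, the filter and the days. Adjusted p-values under DESeq2's Wald test, with no filter, and without day 3 passed for Csn3 in EA1 (slopes 2.39, 2.24 and 2.10), Lilr4b in EA1 (1.58, 1.499 and 1.37), Csn3 in EA3 (1.55, 1.47 and 1.43) and Slco4a1 in EA3 (1.18, 1.10 and 0.75), and for Slco4a1 in EA1 with no filter (-1.08) and without day 3 (-0.94). Over the days left out, slopes ran from 1.95 to 3.39 for Csn3 and from 1.37 to 2.12 for Lilr4b in EA1, from -1.25 to -0.94 for Slco4a1 in EA1, and in EA3 from 1.01 to 1.91 for Csn3, 2.53 to 4.15 for Lilr4b and 0.46 to 1.91 for Slco4a1. In alectinib cultures, those of Crisp1 in EA1 ran from -0.82 to 0.044 and of Slc14a1 in EA3 from -0.82 to 0.74, and changed sign without day 5. The cause was not tested.

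Counts of all genes with a slope moved as well. In DMSO cultures of EA1, 125 fell and 108 rose, against 357 and 402 with DESeq2, 357 and 471 with no filter, and 14 and 47 with a slope on day. In EA2, 0 fell and 0 rose, against 1 and 32 with no filter. In EA3, 352 fell and 386 rose, against 650 and 987 with DESeq2, 658 and 803 with no filter, and 117 and 160 with a slope on day. Without a day, 0 to 335 fell and 0 to 407 rose in EA1, 0 to 4 fell in EA2, and 0 to 852 fell and 0 to 885 rose in EA3. The slopes of the 5 genes in alectinib cultures have no adjusted p under DESeq2. In alectinib cultures of EA1, 0 and 0 became 26 and 88 with DESeq2 and 1 and 22 with no filter. In EA2, 7 and 2 became 114 and 156 with DESeq2, 30 and 33 with no filter, 12 and 1 with library size alone, and 3 and 1 with a slope on day. In EA3, 11 and 94 became 146 and 439 with DESeq2, 38 and 209 with no filter, 1 and 13 with at least 10 counts, and 18 and 148 with a slope on day. Without a day, they ran from 0 to 4 and 0 to 53 in EA1, 0 to 99 and 0 to 50 in EA2, and 0 to 215 and 0 to 661 in EA3.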
